A study of Mus musculus with 4 samples.

Results

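The genes described here encode receptors through which stromal cells of the intestine can sense nucleotides, neuropeptides and vasoactive hormones, and the receptor partners that set ligand choice. They are the ADP receptor P2ry1, the ATP-gated channel P2rx1, the substance P receptor Tacr1, the neuromedin U receptor Nmur2, the receptor activity-modifying proteins Ramp1 and Ramp2, the endothelin receptors Ednra and Ednrb, the angiotensin II receptor Agtr1a and the adrenergic receptor Adra2a. These 10 of the 18619 genes measured were selected on levels seen in the same cells, so that differences between kinds of cell are given as descriptions and not as tests. P2rx1 is also a gene that the study itself used to mark 1 of its fibroblast classes.

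The study asked which stromal cells of the mouse small intestine respond when the Hippo kinases LATS1 and LATS2 are lost. The cells came from adult C57BL/6J mice that carried a tamoxifen-inducible Cre recombinase driven by Pdgfrb and a tdTomato reporter, and were sorted on that reporter. In the LATS1/2 KO 1w group the mice also carried floxed alleles of both kinases (Lats1 f/f Lats2 f/f) and were taken 1 week after induction. The series held 4 samples in 3 groups, of which the values of LATS1/2 KO 1w, a single library, are used below. No level was therefore compared with WT, and no test between groups was possible.

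Transcripts were counted by unique molecular identifiers (UMIs, each standing for 1 captured transcript), 46054627 in 4108 cells, with a median of 10726 UMIs per cell. Lats1 stood at 14.2 UMIs per 1000000 UMIs (CPM) and Lats2 at 53.5 CPM, which does not check the genotype, since 3-prime reads need not lie in a deleted exon. Pdgfrb, whose promoter drove the Cre, was present in every cluster described below, between 275.2 and 1828.1 CPM. As the cells were sorted on the reporter that this Cre switched on, that follows from the sort. It does not show in which cells the deletion took place. Ranges in brackets are exact 95% intervals for counting error only, and say nothing on the spread between mice.

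Purine receptors bind extracellular ATP and its breakdown product ADP, which cells and nerve endings release on stretch, damage or firing. Neuropeptide receptors receive signals from enteric and sensory nerves, and endothelin, angiotensin and adrenergic receptors control contraction of vascular and visceral muscle. RAMP1 and RAMP2 are single-pass membrane proteins that pair with the calcitonin receptor-like receptor (Calcrl), the former giving a receptor for calcitonin gene-related peptide and the latter one for adrenomedullin.

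Promoter windows are given for reference for P2rx1 with Tacr1 and for Ednra with Ednrb, a purine and a neuropeptide receptor that were highest in one cluster and a receptor pair for the same ligands that was highest in another. Other receptors shared a highest cluster too (P2ry1 with Nmur2, Adra2a with Agtr1a, and Ramp1 with both endothelin receptors), and their windows are not printed. RefSeq windows on GRCm38.p6, from 250 bases before to 50 bases from the transcript start, existed for 8 of the 10 genes in the table used, and the single capital letter marks the first transcribed base.
P2rx1 (chr11:72998895-72999194, plus strand): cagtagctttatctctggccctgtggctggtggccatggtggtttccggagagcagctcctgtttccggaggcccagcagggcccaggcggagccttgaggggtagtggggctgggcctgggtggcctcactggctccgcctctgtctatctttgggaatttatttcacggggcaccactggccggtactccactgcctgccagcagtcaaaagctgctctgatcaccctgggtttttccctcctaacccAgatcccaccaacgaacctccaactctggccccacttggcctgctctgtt
Tacr1 (chr6:82402225-82402524, plus strand): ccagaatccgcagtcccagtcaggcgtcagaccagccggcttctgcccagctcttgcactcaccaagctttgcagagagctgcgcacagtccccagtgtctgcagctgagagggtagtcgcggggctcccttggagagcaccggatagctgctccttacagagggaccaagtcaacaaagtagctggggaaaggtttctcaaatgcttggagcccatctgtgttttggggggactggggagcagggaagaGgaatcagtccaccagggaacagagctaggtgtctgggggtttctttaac
Ednra (chr8:77724403-77724702, minus strand): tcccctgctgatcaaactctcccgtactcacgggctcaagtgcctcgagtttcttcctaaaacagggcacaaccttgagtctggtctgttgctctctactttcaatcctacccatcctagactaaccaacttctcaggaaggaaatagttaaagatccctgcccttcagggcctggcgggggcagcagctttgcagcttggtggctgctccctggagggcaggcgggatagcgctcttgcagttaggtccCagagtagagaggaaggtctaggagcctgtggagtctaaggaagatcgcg
Ednrb (chr14:103843652-103843951, minus strand): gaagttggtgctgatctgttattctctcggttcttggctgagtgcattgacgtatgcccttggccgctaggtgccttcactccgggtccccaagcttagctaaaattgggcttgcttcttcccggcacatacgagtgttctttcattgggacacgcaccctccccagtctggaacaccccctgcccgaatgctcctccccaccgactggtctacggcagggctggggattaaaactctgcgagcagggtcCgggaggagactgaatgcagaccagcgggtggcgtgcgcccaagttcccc
The 8 windows were searched on both strands for the TEAD core GGAATG, the AP-1 core TGANTCA, the forkhead core GTAAACA and the CArG box. None of the 8 held a match. Of all 32851 windows, 14.7%, 7.81%, 3.65% and 1.63% held these letters, respectively, and 8 windows are too few to show a lack of them. The study worked with the shorter TEAD sequence GGAAT, which was not searched here and does stand in the printed P2rx1 and Tacr1 windows. The GC content of the 8 ranged from 54.7% (Ednra) to 70.7% (P2ry1).

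Clustering without the receptors, the other genes of their pathways and Vegfc among its input gave 10 clusters, numbered by size. Cluster 3 (687 cells) was FB4-like, with 4 of 4 markers of the submucosal fibroblasts, and cluster 7 (205 cells) FB5-like, with 6 of 6 markers of the subepithelial fibroblasts. None of these 6 was among the 10 leading genes of cluster 7. Of the 6, Foxl1 (12.4 CPM) was higher in clusters 8, 10 and 6 (25.2, 17.2 and 14.5 CPM), and Wnt5a (181.3 CPM) in cluster 10 (208.1 CPM). Cluster 7 also held 3 of 6 smooth muscle markers (Tagln 3724.4 CPM, Acta2 3102.9 CPM and Myh11 218.5 CPM, against 7953.6, 9837.4 and 2231.9 CPM in cluster 8) and the most of Etv1, listed for interstitial cells of Cajal (223.3 CPM), and their part in its receptor levels was not tested. Cluster 8 (76 cells) was SMC-like, with 6 of 6 smooth muscle markers, and cluster 10 (45 cells) vFB3-like, with 4 of 4 markers of this villus fibroblast class. Clusters 1, 6 and 9 each held 2 of these 4. In clusters 1 and 6 they were Mmp10 (60.7 and 106.5 CPM, against 1059.5 CPM in cluster 10) and Fhl2 (314.5 and 347.0 CPM, against 459.2 CPM). The study's text names both for this class, so the vFB3-like cells may not be all of it. In cluster 9 they were Itga8 and Adgrf5. Cluster 9 (70 cells) was high in 6 of 6 markers of mural cells, which line small vessels, but it was left unnamed, because the chloride channel gene Ano1, listed for interstitial cells of Cajal, was among its 10 leading genes and no mural marker was. Ano1 stood at 67.4 CPM there and Kit of the same list at 5.18 CPM. The neuronal marker Uchl1 stood at 29.4 CPM in cluster 9, the highest of all clusters, and 5 of 6 smooth muscle markers were high too. Their part in the levels of cluster 9 was not tested.

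Clusters 1 (727 cells), 2 (720), 4 (676), 5 (562) and 6 (340) reached 3 markers of no list, and all were high in the villus fibroblast gene Adamdec1, between 4076.8 and 6448.1 CPM. Adamdec1 stood at 179.4 CPM in FB4-like cells but at 4236.5 CPM in SMC-like cells, so it does not mark villus fibroblasts alone. The other markers on the same list did not set these clusters apart, since Shisa3 was 60 to 108.6 CPM in them and 124.5 CPM in FB4-like cells, and Serpina3n 62.5 to 257.7 CPM and 234.3 CPM, so they are called by number. As identity, the leading genes were Vegfc, Ecscr, Tex14, Slc27a3 and Sertm1 in cluster 1, Entpd1, Il1b, Pde10a, Ttyh1 and Vwc2 in cluster 2, and Dkk2, Tnc, Cyr61, Gadd45g and Fmod in cluster 4. Bcl6, Adamts4, Gm26802 and Cxcl10 led cluster 5, and Itgb3, Agt, Igfbp3, Sertm1 and Lrrc55 led cluster 6. The other clusters were led by Lbp, Cilp, Ackr4, Cd81 and Fam129a (cluster 3), Wif1, Palmd, Tspan13, Bean1 and Sv2b (7), Actg2, Nmur2, Npnt, Cnn1 and Actc1 (8), Gja4, Rapgef5, Adra2a, Slc38a11 and Serpina1b (9), and Slco2a1, P2rx1, Itga8, Tacr1 and Adgrf5 (10).

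The receptors divided into genes held almost wholly by 1 rare kind of cell and genes that were graded over many. The highest cluster stood at least 2 times above the next for 4 of the 7 receptors with at least 100 UMIs, and for 7 of 10 at any depth, beside 6.87% of the 11467 genes with at least 100 UMIs. As the receptors were chosen for such patterns, nothing is read from the difference. In the columns of cells marked M and those marked F, which split the library by Xist into disjoint sets of 1983 and 2125 cells, all 10 receptors had their highest level in the same cluster.

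**Figure D1:**
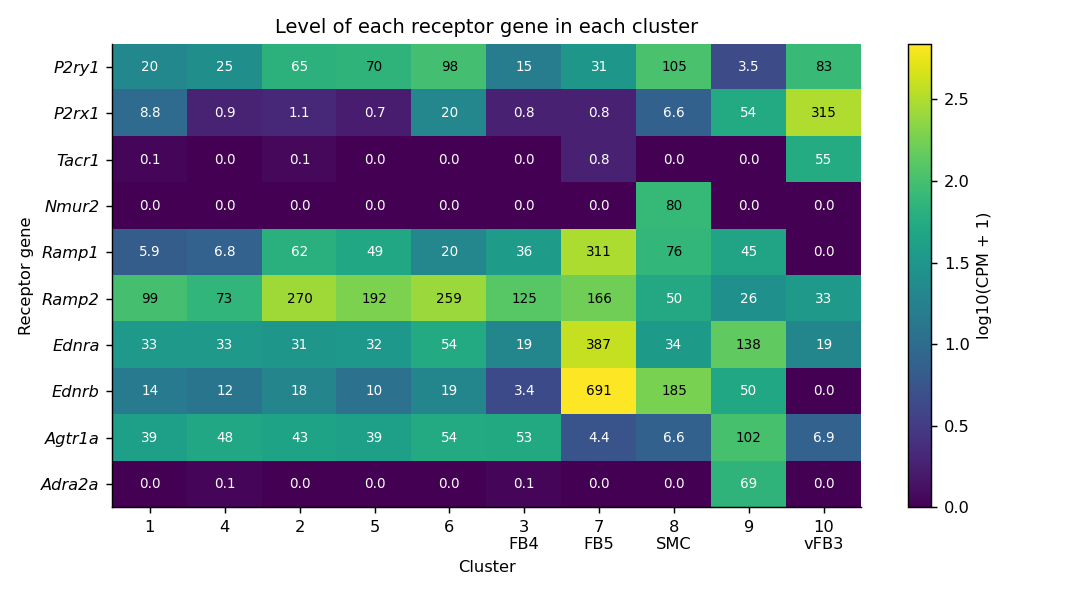
Level of each receptor gene (rows) in each cluster (columns) in CPM, printed in each field and coloured by log10(CPM + 1). Tacr1, Nmur2 and Adra2a each filled 1 column (clusters 10, 8 and 9), whereas Ramp2 lay between 25.9 and 269.7 CPM throughout.

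P2rx1 (ENSMUSG00000020787, mm10 chromosome 11, 72999103 to 73015200), which encodes a cation channel opened by ATP, was highest in vFB3-like cells. It stood at 314.8 CPM there (270.8–363.8), and 183 of its 390 UMIs fell in these 45 cells. Every one of them held at least 1 P2rx1 UMI, and 70.5% (54.8–83.2) still did after each cell was thinned at random to 5000 UMIs. Cluster 9 followed at 53.6 CPM (36.4–76), cluster 6 at 19.9 CPM, cluster 1 at 8.75 CPM and SMC-like cells at 6.64 CPM. FB4-like cells, FB5-like cells and clusters 2, 4 and 5 lay between 0.656 and 1.11 CPM, with intervals that all took in the bound of 0.732 CPM for free RNA, so that expression could not be told from background there.

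In clusters 1 and 6, at these low levels, P2rx1 UMIs were seen in few cells, which does not show how many expressed the gene. In cluster 1, 49 of 727 cells held a P2rx1 UMI, and their level of the vFB3 marker Mmp10, a matrix metalloproteinase, was 273.3 CPM against 43 CPM in the other cells (ratio 6.35, 5.28–7.61). Itga8, an integrin chain and vFB3 marker, stood at 63.9 against 12.3 CPM in the same cells (ratio 5.19, 3.54–7.5). In cluster 6, 35 of 340 cells held a P2rx1 UMI, and Mmp10 was again higher in them (475.6 against 61.3 CPM, ratio 7.76, 6.26–9.61), whereas Itga8 was not apart (13.8 against 10.5 CPM, ratio 1.32, 0.4–3.42). The cells with a P2rx1 UMI had more UMIs by median (13696 against 11819.5 in cluster 1 and 9853 against 9427 in cluster 6). At an equal 5000 UMIs per cell, Mmp10 was found in 50% of the cluster 1 cells with P2rx1 and 7.9% of the others, and in 66.7% and 12.6% in cluster 6. Itga8 was found in 35% and 6.18% in cluster 1 and in 5.56% and 4.1% in cluster 6. Vegfc, the lymphatic growth factor, was at 304.5 against 238.5 CPM in cluster 1 (ratio 1.28, 1.1–1.48). In cluster 6 it went the other way, at 19.4 against 41 CPM (ratio 0.472, 0.186–1). These contrasts join finer clusters. At resolution 1.0, a cluster of 349 cells, 343 from cluster 1, held 16.3 CPM of P2rx1, 115.7 of Mmp10 and 29.8 of Itga8. Another of 374 cells, 368 from cluster 1, held 1.17, 5.84 and 2.33 CPM. A cluster of 184 cells, 179 from cluster 6, held 33.4 CPM of P2rx1 and 154.8 CPM of Mmp10.

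**Figure D2:**
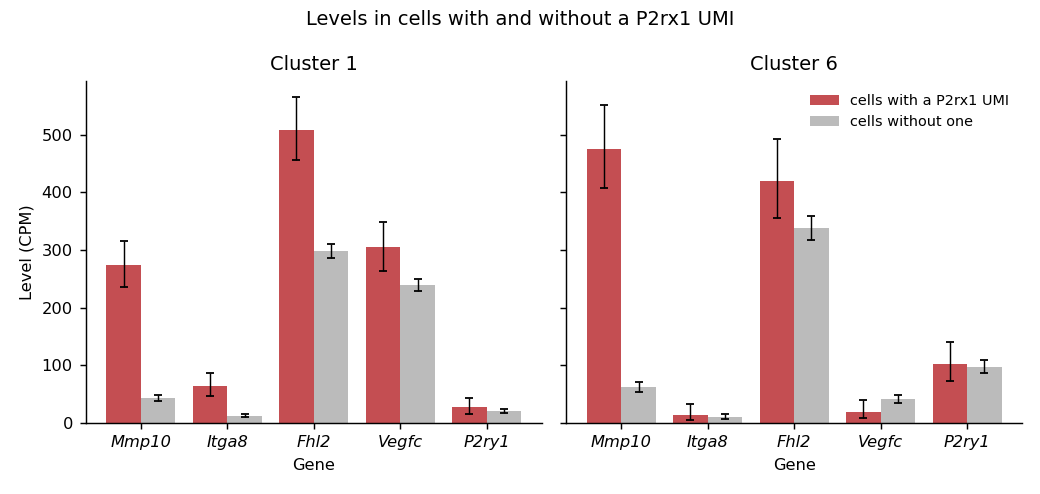
Bars give the level in CPM of 5 genes in cells with a P2rx1 UMI (red) and without one (grey) in cluster 1 (49 and 678 cells) and cluster 6 (35 and 305 cells), with exact 95% Poisson intervals. Mmp10 was 6.35 and 7.76 times higher in the red bars, and the intervals of P2ry1 overlapped in both.

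Mmp10 did not go with P2rx1 in cluster 9. The 11 of 70 cells with a P2rx1 UMI held no Mmp10, and neither did the other 59, while Itga8 was 90.1 against 19.9 CPM (ratio 4.52, 1.82–12.2). The remaining vFB3 markers went the other way. Fhl2 was 73.2 against 157.0 CPM (ratio 0.466, 0.235–0.856) and Adgrf5 0 against 27.4 CPM (ratio 0, 0–0.9). Only 1 of these 11 cells also held an Adra2a UMI, against 23 of the other 59. The 11 cells were far deeper than the rest (median 16230 against 6236 UMIs). The level of P2rx1 in cluster 6 rested on the columns marked M, which gave 60 of its 66 UMIs (28.7 CPM against 4.91 CPM in F), and in cluster 1 it was 15 CPM in M and 5.72 CPM in F.

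P2ry1 (ENSMUSG00000027765, chromosome 3, 61002795 to 61008982), a receptor coupled to Gq that responds to ADP, was spread more widely. Its level was 105.0 CPM (83.1–130.8) in SMC-like cells, 97.5 CPM (87.1–108.7) in cluster 6 and 82.6 CPM (60.9–109.5) in vFB3-like cells, and these neighbours did not differ beyond counting error. Clusters 5 and 2 followed at 69.9 and 65.1 CPM, and then a step of 2.08 times (1.64–2.68) led down to FB5-like cells at 31.2 CPM. Clusters 4 and 1 stood at 24.8 and 20.4 CPM and FB4-like cells at 14.7 CPM. Cluster 9 held only 2 UMIs of it (3.46 CPM, 0.418–12.5), within the free RNA bound of 3.6 CPM. In cluster 9, P2rx1 thus had the next level after its highest and P2ry1 its lowest. P2ry1 stood at 54.2 CPM over all M columns and at 31.6 CPM over all F columns. In cluster 2 it was 89.6 against 46.2 CPM, but in vFB3-like cells 79.8 against 85.1 CPM. The clusters differed in their mix of M and F cells, whose part in the order of P2ry1 levels was not tested.

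Tacr1 (ENSMUSG00000030043, chromosome 6, 82402334 to 82560104), which encodes the neurokinin receptor for substance P, was nearly confined to vFB3-like cells. They gave 32 of its 36 UMIs (55 CPM, 37.6–77.7), from 18 of 45 cells, with at most 6 in 1 cell. FB5-like cells gave 2 UMIs and clusters 1 and 2 gave 1 each, and the remaining clusters gave 0. The level in vFB3-like cells was 625.7 times that of all other cells, with an interval of 221.9 to 2435.4. After thinning, 8 of the 9 vFB3-like cells with Tacr1 also held P2rx1, which 31 of the 44 thinned cells did.

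Nmur2 (ENSMUSG00000037393, chromosome 11, 56024987 to 56041010), the second receptor for neuromedin U, a peptide known to contract smooth muscle, was found in SMC-like cells alone. All 60 UMIs lay in 38 of these 76 cells (79.7 CPM, 60.8–102.6), with 17 UMIs in columns marked M and 43 in F. The other 4032 cells of the library held 0 UMIs, and against the limit of 3 counts over these cells that a 0 allows the level was at least 1203.7-fold higher in SMC-like cells. That figure leaves out the counting error of the 60 UMIs, and the exact interval of the ratio began at 949.1. After thinning, 32% of SMC-like cells (21.7–43.8) still held it. Within SMC-like cells, Nmur2 and P2ry1 met in 11 of 75 thinned cells, beside 10.2 from the product of their shares.

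**Figure D3:**
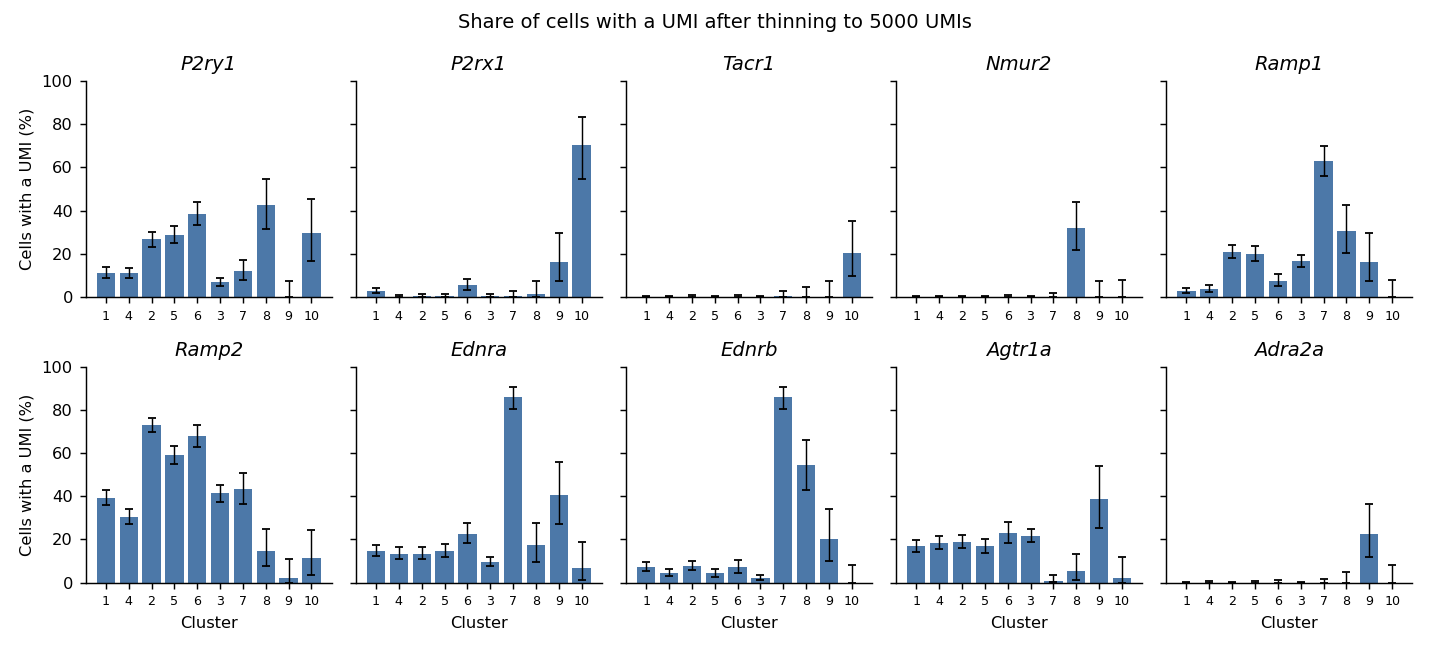
Share of cells (%) with at least 1 UMI of each receptor gene in each cluster after every cell was thinned to 5000 UMIs, with exact 95% binomial intervals as bars. Ednra and Ednrb both reached 86% in cluster 7, and Nmur2 was seen in cluster 8 only.

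Ramp1 (ENSMUSG00000034353, chromosome 1, 91179822 to 91225196) was highest in FB5-like cells, at 311.3 CPM (289.8–334.0), and 63% of them (55.9–69.7) held a UMI after thinning. SMC-like cells stood at 75.7 CPM, cluster 2 at 62 CPM and cluster 5 at 49.2 CPM. Clusters 1 and 4 were low, at 5.91 CPM (4.41–7.75) and 6.75 CPM (5.04–8.86), little above the free RNA bound of 3.91 CPM. None of the vFB3-like cells held a UMI, which allows a level of up to 5.16 CPM.

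Ramp2 (ENSMUSG00000001240, chromosome 11, 101246028 to 101259546) had the most UMIs of the 10 genes (6958). It was highest in cluster 2 at 269.7 CPM (257.9–282.0) and cluster 6 at 259.2 CPM (242.1–277.1), which did not differ beyond counting error, followed by cluster 5 at 191.5 CPM. FB5-like cells stood at 165.7 CPM, FB4-like cells at 125.0 CPM, cluster 1 at 99.2 CPM and cluster 4 at 73.2 CPM. SMC-like cells, vFB3-like cells and cluster 9 were lowest, at 50.5, 32.7 and 25.9 CPM, with no step beyond counting error between neighbours. Its model overlaps Vps25 on the same strand, a gene with 112 UMIs in the library.

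Calcrl, the shared partner of both proteins, followed Ramp2 more than Ramp1 among clusters 1, 2, 4, 5 and 6. Clusters 5, 2 and 6 had 234.0, 207.1 and 195.2 CPM of it, and clusters 1 and 4 had 65.2 and 80.1 CPM. FB5-like cells held 137.3 CPM, SMC-like cells 123.5 CPM, and vFB3-like cells 13.8 CPM. Ramp3, the remaining member of the family, had 19 UMIs in the whole library.

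The balance between both RAMP genes differed between kinds of cell. Ramp2 gave 94.4% (92.7–95.8) of the Ramp1 and Ramp2 UMIs in cluster 1 and 91.6% in cluster 4, 81.3% in cluster 2, 79.6% in cluster 5 and 92.9% in cluster 6. In FB5-like cells it gave 34.7% (32–37.5), in SMC-like cells 40% (30.1–50.6) and in cluster 9 36.6% (22.1–53.1), while FB4-like cells lay at 77.7% and all 19 such UMIs of vFB3-like cells were Ramp2. Capture can differ between genes, so the shares are compared between clusters and not with an even split. In FB5-like cells, 64 of 200 thinned cells held Ramp1 together with Calcrl (32%) and 46 held Ramp2 together with Calcrl (23%). The products of the shares gave 58 and 40. In cluster 2 the same pairs were seen in 89 and 294 of 709 cells (12.6% and 41.5%), beside 85.7 and 298.1. The joint counts thus lay near what the shares of each gene give.

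**Figure D4:**
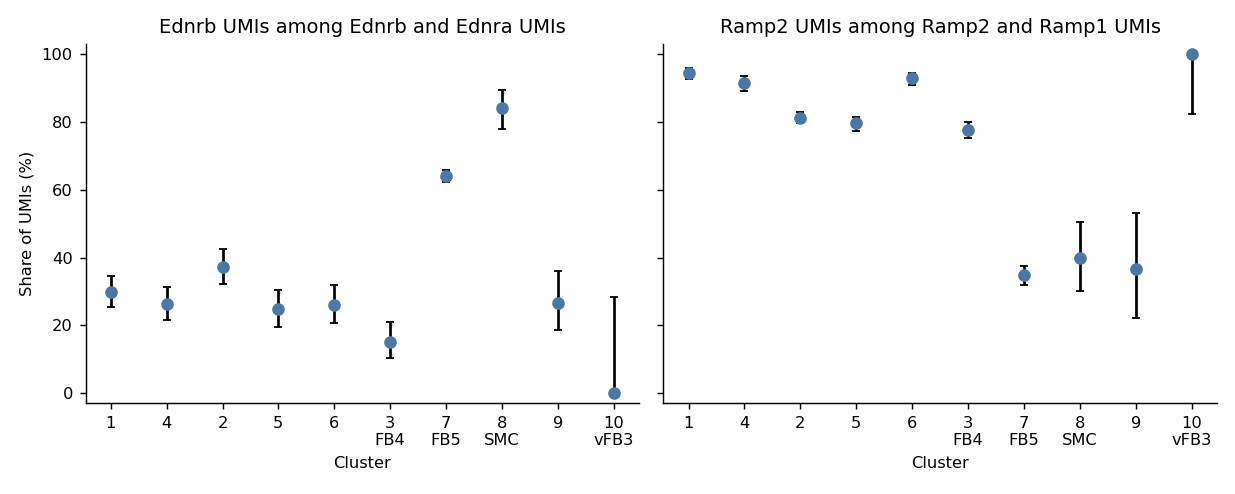
Share (%) of Ednrb among Ednrb and Ednra UMIs (left) and of Ramp2 among Ramp2 and Ramp1 UMIs (right) in each cluster, with exact 95% binomial intervals. Cluster 7 lay at 64.1% on the left and 34.7% on the right, and clusters 1, 2, 4, 5 and 6 lay at 24.7% to 37.3% and 79.6% to 94.4%.

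Both endothelin receptor genes were highest in FB5-like cells. Ednrb (ENSMUSG00000022122, chromosome 14, 103814625 to 103844402) stood at 691.1 CPM there (658.9–724.5), from 1727 of its 2399 UMIs, and a single cell held up to 39. SMC-like cells followed at 184.7 CPM (155.2–218.0) and cluster 9 at 50.1 CPM, while clusters 1, 2, 4, 5 and 6 lay between 10.5 and 19 CPM. FB4-like cells, at 3.4 CPM, were below the free RNA bound of 4.5 CPM, and vFB3-like cells held 0 UMIs. In SMC-like cells Ednrb was 218.2 CPM in F columns and 108.6 CPM in M columns.

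Ednra (ENSMUSG00000031616, chromosome 8, 77663031 to 77724464) stood at 386.6 CPM in FB5-like cells (362.6–411.7) and at 138.2 CPM in cluster 9 (109.6–172.0), a step of 2.8 times (2.22–3.56). Cluster 6 came next at 54 CPM. SMC-like cells (34.5 CPM) and clusters 4, 1, 5 and 2 (33.2 to 31.1 CPM) did not differ in turn beyond counting error, and FB4-like and vFB3-like cells were lowest at 19 and 18.9 CPM. Ednrb gave 84.2% (77.8–89.4) of the UMIs of both genes in SMC-like cells, 64.1% (62.3–65.9) in FB5-like cells and 26.6% (18.6–35.9) in cluster 9. Of 200 thinned FB5-like cells, 172 held Ednra, 172 held Ednrb and 151 held both, where the product of the shares gave 147.9.

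Agtr1a (ENSMUSG00000049115, chromosome 13, 30336441 to 30382867), the type 1 receptor of angiotensin II, was near even over most fibroblasts. It stood at 101.9 CPM (77.6–131.5) in cluster 9, 1.89 times (1.38–2.55) above cluster 6 at 54 CPM. FB4-like cells (52.6 CPM) and clusters 4, 2, 1 and 5 (48 to 39.2 CPM) followed with no step beyond counting error between neighbours. It was then 5.7 times lower (2.2–21.1) in vFB3-like cells, at 6.88 CPM, and stood at 6.64 CPM in SMC-like and 4.4 CPM in FB5-like cells, where the free RNA bound was 3.7 CPM. The last 3 did not differ beyond counting error, so FB5-like cells, highest in both endothelin receptors, were among the lowest in Agtr1a.

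Adra2a (ENSMUSG00000033717, chromosome 19, 54044151 to 54048982), a Gi-coupled receptor for noradrenaline, was found almost only in cluster 9. These cells gave 40 of its 42 UMIs (69.1 CPM, 49.4–94.1), from 24 of 70 cells, with 18 UMIs in M columns and 22 in F columns. The ratio to all other cells was 1571.5, with an interval of 407.5 to 13422.7. In 49 thinned cells of cluster 9, 5 held both Adra2a and Agtr1a, 2 held both Adra2a and Ednra, and 1 held both Adra2a and P2rx1. Cluster 9 was the shallowest (median 6853 UMIs), and 21 of its cells fell under the thinning depth.

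Clusters 1, 2, 4, 5 and 6 were then divided by Vegfc and the YAP/TAZ target Amotl2, as the study was about YAP/TAZ-driven VEGF-C. Clusters 1 and 4 lay above the pooled level of both genes, and clusters 2, 5 and 6 below. Ramp1 was 6.3 CPM in the former and 48.9 CPM in the latter (ratio 0.129, 0.104–0.158), P2ry1 22.5 and 73.3 CPM (ratio 0.307, 0.272–0.345), and Ramp2 87.1 and 238.9 CPM (ratio 0.364, 0.343–0.387). The low side was uneven in Ramp1, with 19.9 CPM in cluster 6 against 62 and 49.2 CPM in clusters 2 and 5. Cluster 6 had 0.355 times (0.271–0.457) the level of clusters 2 and 5 joined. Of the 7 receptors with at least 100 UMIs in these cells, 3 were at least 2-fold lower in the clusters high in Vegfc, beside 2.34% of 10912 genes, and 0 were at least 2-fold higher, beside 2.2%. The median ratio was 0.833 over the 7 receptors and 0.976 over all genes. Tacr1, Nmur2 and Adra2a had at most 2 UMIs each in these cells, too few to compare.

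The vFB3-like cluster, a named class left out of this division, had the highest Vegfc of all clusters (387.0 CPM, 338.1–441.0, against 243.5 and 209.6 CPM in clusters 1 and 4), with Amotl2 at 206.4 CPM. It went with the high side in Ramp2 (32.7 CPM) and Ramp1 (0 UMIs) but not in P2ry1 (82.6 CPM). With it added to the high side the ratios were 0.335 for P2ry1, 0.124 for Ramp1, 0.357 for Ramp2 and 3.33 for P2rx1.

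The lower levels of P2ry1, Ramp1 and Ramp2 were seen in both pairs of clusters. P2ry1 was 0.314 times (0.263–0.374) as high in cluster 1 as in cluster 2, and 0.355 times (0.298–0.422) as high in cluster 4 as in cluster 5. Ramp1 gave 0.0952 and 0.137, Ramp2 gave 0.368 and 0.383, and their partner Calcrl gave 0.315 and 0.342. Adm, which encodes adrenomedullin, was 95.9 CPM in the clusters high in Vegfc and 18.9 CPM in those low in it (ratio 5.08, 4.49–5.75), opposite in side to Ramp2 and Calcrl.

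The other receptors gave ratios near 1. Agtr1a was 43.4 and 43.7 CPM (ratio 0.993, 0.894–1.1), Ednra 33.2 and 36 CPM (0.923, 0.82–1.04) and Ednrb 13 and 15.6 CPM (0.833, 0.692–1). P2rx1 was 5.09 and 4.69 CPM (1.08, 0.787–1.5), which joins unlike clusters, since cluster 1 was 7.88 times (3.81–18.9) above cluster 2 and cluster 6 was 22.1 times (11.8–44.9) above clusters 2 and 5. Its ratio was 5.64 without cluster 6 and 0.194 without cluster 1, so that this value rests on which clusters are joined.

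Divided instead by the immediate early genes Fos, Fosb and Junb, clusters 4 and 5 stood above clusters 1, 2 and 6. Fos itself was 2258.0 against 299.2 CPM. P2ry1 (ratio 0.889, 0.803–0.985), Ramp1 (0.873, 0.762–0.999) and Agtr1a (1.02, 0.919–1.14) were close to level in this division, while Ramp2 was 0.66 (0.623–0.699) and Ednrb 0.679 (0.556–0.825). P2rx1 was the 1 receptor of the 7 that was at least 2-fold lower where these genes were high (0.797 against 7.81 CPM, ratio 0.102, 0.0499–0.188), beside 0.669% of genes, and 0 of the 7 were at least 2-fold higher, beside 2.22%. This ratio again joins unlike clusters, since cluster 2 on the low side (1.11 CPM) was like clusters 4 and 5 (0.909 and 0.656 CPM), and it rests on clusters 1 and 6, the latter with 60 of 66 UMIs from M columns. Handling of the tissue can raise immediate early genes, and its part here was not tested. The study named this risk as well, and reported that cells with both PDGFRβ and Fosb were seen in vivo whether or not cells were dissociated.

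**Figure D5:**
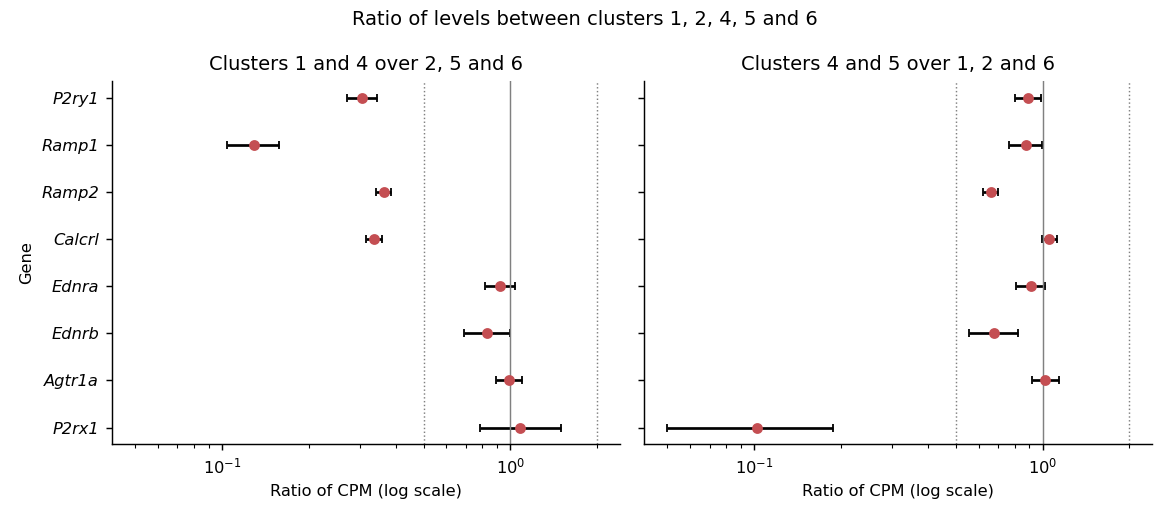
Ratio of CPM on a log axis for 7 receptors and Calcrl, between the clusters high and low in Vegfc and Amotl2 (left) and high and low in Fos, Fosb and Junb (right), with exact 95% intervals, and lines at 1 (solid) and at 0.5 and 2 (dotted). P2ry1, Ramp1, Ramp2 and Calcrl lay at 0.129 to 0.364 on the left and at 0.66 to 1.05 on the right.

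Other genes of these pathways were counted from lists, of which the 3 with the highest cluster level are named. Of 17 purine receptor genes in the file, 7 had at least 100 UMIs, and 2 of these, with P2rx1 as 1 of them, stood 2 times above the next cluster, beside 6.87% of all genes with that many. P2ry14, a receptor for UDP-sugars, reached 457.0 CPM in SMC-like cells, P2rx4 70.5 CPM and P2rx6 18.9 CPM in vFB3-like cells. For P2rx4 and P2rx6 the next cluster did not differ beyond counting error (ratios 1.2, 0.743–1.95, and 1.49, 0.693–2.95). Of 11 enzymes and transporters that handle nucleotides, 10 reached 100 UMIs. Entpd2, an ectonucleotidase that cleaves ATP, was highest in FB4-like cells (452.8 CPM, 438.6–467.3), and Entpd1, which removes ATP and ADP, in SMC-like cells (136.8 CPM). Of the 9 such genes with enough UMIs for the division by Vegfc, 2 were at least 2-fold higher and 3 lower, beside 2.2% and 2.34%. Entpd1 was among those lower in the clusters high in Vegfc (ratio 0.321, 0.283–0.362), as was Enpp2 (0.235, 0.194–0.283), which makes lysophosphatidic acid and reached 131.5 CPM in SMC-like cells.

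Of 17 neuropeptide receptor genes and partners, 6 reached 100 UMIs and 4 of them were at least 2-fold lower in the clusters high in Vegfc, with Ramp1 and Ramp2 counted, and 0 higher, beside 2.34% and 2.2% of all genes. Npy1r, the neuropeptide Y receptor, was highest in cluster 9 at 140.0 CPM (111.1–174.0), 3.17 times (2.46–4.04) above the next cluster. Vipr2, a receptor for vasoactive intestinal peptide, reached 48.2 CPM in cluster 5, where the next cluster did not differ beyond counting error (ratio 1.15, 0.974–1.35). Of 29 vasoactive receptor genes, 18 reached 100 UMIs and 5 stood 2 times above the next cluster, with Ednra and Ednrb as 2 of them, beside 6.87% of all genes. Of the 15 with enough UMIs for the division by Vegfc, 2 were at least 2-fold higher and 3 lower, beside 2.2% and 2.34%. F2r, the thrombin receptor, was 2.69 times (2.58–2.8) higher in the clusters high in Vegfc. The nitric oxide receptor subunits Gucy1a1 and Gucy1b1 were highest in cluster 9, at 513.2 and 494.2 CPM.

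Among 16 ligands and processing enzymes, 5 reached 100 UMIs. Agt, the precursor of angiotensin II, was highest in SMC-like cells at 591.2 CPM (537.5–648.7), a cluster with 6.64 CPM of Agtr1a, and cluster 6 followed at 175.9 CPM. Ece1, which activates endothelins, was highest in FB5-like cells at 224.5 CPM (206.3–243.9), where both endothelin receptors were highest as well, and Adm in FB4-like cells at 128.7 CPM (121.2–136.6). Of the Gq and calcium genes (12 of 15 reached 100 UMIs) and the cyclic nucleotide genes (14 of 14), none of the 10 and 14 with enough UMIs was at least 2-fold apart in the division by Vegfc. The calcium sensor Stim1 (133.0 CPM) and the phosphodiesterase Pde3a (385.3 CPM) were highest in cluster 9, by 2.86 (1.9–4.4) and 2.89 (2.49–3.34) times over the next cluster, and Gnas and Gnai2, which encode G protein subunits that raise and lower cyclic AMP, reached 1280.3 CPM in cluster 9 and 561.4 CPM in FB5-like cells. Gna11 was highest in FB5-like cells (126.1 CPM) and Gnaq in vFB3-like cells (110.1 CPM). For Gna11 and Gnai2 the next cluster did not differ beyond counting error (ratios 1.33, 0.993–1.8, and 1.09, 0.965–1.24).

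Genes whose level over the 10 clusters was most like that of a receptor were ranked by Pearson's r of log2(CPM + 1) among 8120 genes, as a description over points of 1 library. Tacr1 was followed best by Npm3 (0.974), Cdv3 (0.962) and Wdr3 (0.960), and P2rx1 by Rfxap (0.953), Itga8 (0.943) and Kansl2 (0.938). Adra2a was followed by Pln (0.987), the sarcoplasmic calcium pump regulator phospholamban, and by Arhgef7 (0.983) and Serpina1b (0.973). For Nmur2 the genes were Gcg (0.998), cardiac actin Actc1 (0.991) and Ctxn1 (0.952), but 258 of the 264 Gcg UMIs came from 1 cell, so that this likeness rests on a single droplet. Ednra was followed by Kcnab1 (0.950), Atad1 (0.948) and Palmd (0.944), Ednrb by Pfdn2 (0.954), Tmem29 (0.943) and Surf2 (0.929), and Ramp1 by Lrrc49 (0.986), Map1lc3b (0.942) and Rbp4 (0.937). Ramp2 was followed by Larp6 (0.951), Slc1a3 (0.921) and Rmdn1 (0.919), P2ry1 by Dhx40 (0.928), Ap4m1 (0.921) and Prkaa1 (0.915), and Agtr1a by Ephb2 (0.926), Smarcb1 (0.922) and Adamtsl5 (0.916). The measure takes no account of the size of a change.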

How the data were processed

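Sorted stromal cells were sequenced with a droplet kit that counts 3-prime ends. The authors aligned reads to mm10 with Cell Ranger 3.0.2, kept cells with 1000 to 6000 genes and at most 7% mitochondrial UMIs, and removed immune and endothelial clusters. Per the methods and the values, the deposited unit is a natural log, taken of 1 plus a gene's UMIs scaled to 10000 per cell. UMI counts were read back, and 100.00% of 13789523 nonzero values came out whole (tolerance 0.001). The 10 receptors, the gene lists and the markers were chosen with earlier results of these data known.

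Clusters were made in Seurat 5.3.0 and R 4.3.3 at resolution 0.5, from 30 principal components of 2000 variable genes less the receptors, pathway genes and others (66 genes in all), with depth and mitochondrial share regressed out. A marker counted for a cluster when 10% of its cells held a UMI and its level was 2 times that of all other cells. A name needed 3 counting markers and no other list with more markers among the 10 leading genes. The rule was adjusted with the cluster levels in view. Its first version compared markers with the median of the other clusters and called cluster 1 vFB3-like. A later version that let 1 foreign marker pass had named cluster 9 for its mural markers and was given up. Cluster 9 was kept out of the division by Vegfc for those markers. Both choices were run as alternatives. Class names may not match the study's.

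Levels (CPM) have exact Poisson intervals, ratios exact conditional binomial intervals and shares Clopper-Pearson intervals, computed in scipy 1.17.1 and tested on simulated data. They cover counting error only. With 1 library no p-value was computed. Shares of cells were thinned to 5000 UMIs per cell, which left out 94 cells. The free RNA bound was 8.64% of a gene's library level, set by the 161 Y-linked UMIs seen across 2004 cells that held 5 or more Xist UMIs. Main results keep possible doublets. Scrublet (scanpy 1.11.5) marked only 8 cells (0.195%), and how well it worked here was not tested. Leaving out the top-scoring 4% served as an alternative. Named genes are the receptors, 3 genes by highest level from each list, 3 most alike genes per receptor and 5 leading genes per cluster, of which 1 in cluster 5 is not reported. Calcrl, Adm, Ramp3, Vps25 and the markers set beside P2rx1 were added after values had been seen. Gene models were taken from GENCODE M21 (mm10), and promoter windows from RefSeq (GRCm38.p6).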

Additional observations from a re-analysis of the deposited data

How the results depend on the processing

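With 1 library no replicate could be left out, and no paired analysis was possible because the results come from no test. The highest cluster of all 10 receptors held under 8 of 11 alternatives, and of 9 under the others. The others were resolution 1.0, where Ramp2 moved, and cells with 8000 to 14000 UMIs and at most 5% mitochondrial UMIs, where P2ry1 moved, with 22 and 6 UMIs left in SMC-like cells. For Ramp2, 2 of the 8 matched cluster 2 only in part, with 0.441 (resolution 0.2) and 0.497 (nothing regressed out) of the joined cells shared. The count of receptors at least 2-fold apart by Vegfc and Amotl2 was 3, or 4 with P2rx1 added, under all 16 alternatives, and P2ry1, Ramp1 and Ramp2 were among them each time. Ratios of these 3 ran from 0.271 to 0.349, 0.0531 to 0.168 and 0.307 to 0.407. P2rx1 ran from 0.163 (resolution 1.0) to 5.64 (without cluster 6). Settings chosen after seeing the data were those without cluster 1, without cluster 6, without cells holding both Xist and a Y-linked UMI, with the first naming rule and with cluster 9 or cluster 10 added. The first naming rule takes cluster 1 out of the division, which is the same comparison as the setting without cluster 1. It gave 0.338, 0.138, 0.307 and 0.194 for P2ry1, Ramp1, Ramp2 and P2rx1. Adding cluster 9 left the clusters on each side as they were, so its outcome was fixed. The 16 alternatives thus hold fewer separate comparisons. Tacr1, Nmur2 and Adra2a had 36, 60 and 42 UMIs in all. Their values against all other cells ran from 493.3 to 2690.6, 225.7 to 1224.7 and 511.7 to 3595.0. All those of Nmur2, and the 511.7 of Adra2a in M columns, are limits against 3 counts, since the other cells held 0 UMIs. Such limits depend on how many cells are used, so these ranges mix limits with ratios. With the free RNA bound subtracted Nmur2 and Adra2a gave no ratio. The share of vFB3-like cells with Tacr1 was 13.3% when thinned to 2000 UMIs and 40% unthinned.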
